A study of Mus musculus with 45 samples.

Results

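The effect of a high-fat diet on the hearts of mice breathing mainstream cigarette smoke was examined in 14 arrays of a series of 45, chosen by their titles: the 6 labelled DIO-MS and the 8 labelled RW-MS. Each array holds the heart RNA of 1 male C57BL/6 mouse on an Affymetrix mouse array, and the arrays of a group are labelled biological replicates. RW (regular weight) mice ate a regular diet with about 5% of its energy as fat, and DIO (diet-induced obese) mice a diet with 60% of its energy as fat, from 6 weeks of age and for 9 weeks before the exposures began. At 15 weeks of age both groups were exposed through the nose only to mainstream smoke (MS) for 5 hours a day, 8 times over 2 weeks, and the hearts were taken on the following day. The same diets were compared in sham controls breathing filtered air (8 RW-SC and 8 DIO-SC mice) and in sidestream smoke (7 RW-SS and 8 DIO-SS mice), which share no array with the mainstream smoke groups. The labels also speak in one place of an LPS study, and the titles and the description of the treatment, which name smoke, were followed. The obese state is the one that this purchased diet model produces, body weights were not used here, and the hour of killing is not given in the sources used here. All levels are log2 expression values per probe set, a difference of 1 is a 2-fold change, and differences are DIO-MS minus RW-MS unless said otherwise.

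The heart meets most of its energy need by burning fatty acids and takes up less glucose when fat supply is high. Fatty acids entering the cardiomyocyte activate PPAR alpha, a nuclear receptor that raises the genes of fatty acid uptake and oxidation and of pyruvate dehydrogenase kinase 4 (Pdk4), which closes the entry of glucose carbon into the mitochondrial citrate cycle. Mainstream smoke is the smoke drawn through the cigarette, and its polycyclic compounds activate the aryl hydrocarbon receptor, whose best known target is the detoxifying enzyme gene Cyp1a1.

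Cardiomyocyte marker genes were high in all 14 arrays, with a mean of the 11 markers between 12.64 and 12.78 in RW-MS and between 12.68 and 12.76 in DIO-MS. The atrial gene Sln, which encodes the calcium pump inhibitor sarcolipin, was at 4.47, 5.37 and 5.42 in RW-MS 2, RW-MS 6 and RW-MS 8. Sln ran from 12.16 to 12.97 in the remaining 5 arrays of that group and from 12.11 to 12.98 in DIO-MS. The mean of all 11 atrial markers was 5.93 to 6.47 in those 3 arrays, 8.84 to 9.42 in the other RW-MS arrays and 8.81 to 9.44 in DIO-MS. This mean includes Sln itself, so part of the gap follows from singling out arrays by Sln. The same 3 arrays were also lower than the other RW-MS arrays in white fat markers (means of 5.39 to 6.09 against 6.86 to 7.46), brown fat markers (4.88 to 5.23 against 6.19 to 6.77) and fibroblast markers (9.04 to 9.12 against 9.27 to 9.66). The DIO-MS arrays lay at 5.93 to 6.99 for white fat, 4.88 to 5.82 for brown fat and 9.34 to 9.51 for fibroblasts. RW-MS 7 stood apart in another way, with a mean of 8.22 for lymphocyte and MHC class II markers against 6.03 to 6.36 in the other RW-MS arrays and 5.95 to 6.46 in DIO-MS. In whole-heart RNA, fewer cells of a type and less RNA per cell cannot be told apart. Counts over gene lists, and the genes described at length, are therefore also given without the 3 RW-MS arrays whose Sln is below 8, called here the low-Sln arrays.

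**Figure D1:**
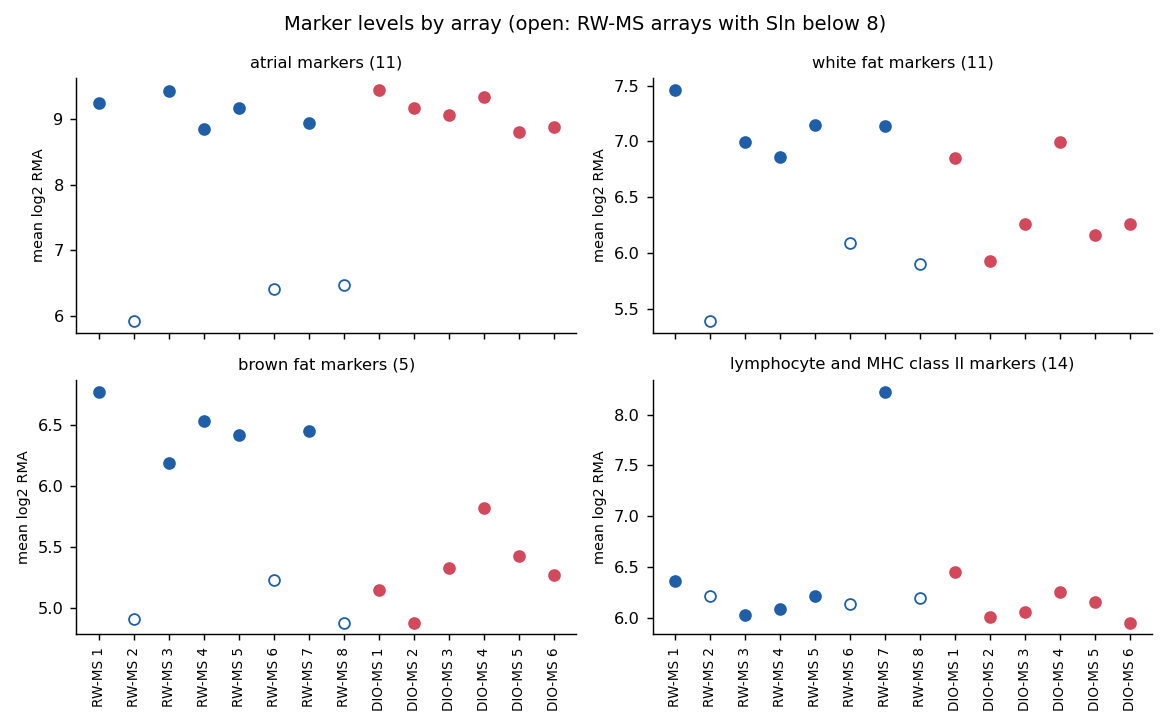
Mean log2 level of atrial, white fat, brown fat and lymphocyte marker genes (vertical axes) in each RW-MS array (blue) and DIO-MS array (red), with 1 point per array and open points for RW-MS arrays with Sln below 8. RW-MS 2, 6 and 8 lie at 5.93 to 6.47 for atrial markers, which include Sln itself, and RW-MS 7 lies at 8.22 for lymphocyte markers.

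Of 9295 genes tested with limma, 984 (10.6%) differed between DIO-MS and RW-MS at an adjusted p under 0.05, 478 of them higher (5.14%) and 506 lower (5.44%) in DIO-MS. Most of these differences were small: 23 of the higher genes (0.247%) and 12 of the lower genes (0.129%) differed by at least 1.5-fold, and the median difference over all tested genes was -0.0045. In 130 genes (1.4%) every DIO-MS array lay above every RW-MS array, and in 91 genes (0.979%) every DIO-MS array lay below. Without the low-Sln arrays 1017 genes passed (10.9%), 448 higher (4.82%) and 569 lower (6.12%), and 700 genes passed in both fits. The number at least 1.5-fold lower then went from 12 to 52 (0.559%), and the number at least 1.5-fold higher from 23 to 19 (0.204%). Leaving out these arrays also moved the RW-MS mean of white fat markers from 6.62 to 7.12, against 6.41 in DIO-MS. The brown fat mean went from 5.92 to 6.47, against 5.31 in DIO-MS. The part of fat tissue in these counts was not tested. In air, for comparison, 6.92% of all genes were called higher and 13.3% lower with the diet. When only the 14 arrays were fitted, without the spread of the other groups, 456 genes passed, of which 442 were among the 984.

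Among the genes called with all arrays, those with the largest differences outside the atrial genes included genes of fuel use and of iron uptake. Besides Sln, Myl7 and Myl4, described with the atrial genes, the largest rises were in Tfrc (the transferrin receptor), Acot1, Pdk4, Angptl4, Acot2, Zbtb16 and Txnip. The largest falls were in Bex1, Slc27a2, Abat, Cpxm2, Gpd2, Mt2, Slc2a1, Pcx, Bdh1 and Neat1.

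Genes that spare glucose and release fatty acids from their coenzyme A esters had some of the largest rises. Pdk4 ran from 9.72 to 10.66 (median 10.33) in RW-MS and from 11.20 to 11.65 (median 11.57) in DIO-MS. The groups did not overlap, and the rise was 1.31 ± 0.20 (SE, limma adjusted p = 6.64e-06), a 2.47-fold change. Acot1, a cytosolic enzyme that splits acyl-coenzyme A, ran from 6.48 to 7.13 (median 6.78) in RW-MS and from 7.92 to 8.31 (median 8.06) in DIO-MS. It rose by 1.33 ± 0.12 (adjusted p = 1.66e-10), again with no overlap. Its mitochondrial relative Acot2 rose by 0.99 ± 0.10 (adjusted p = 3.84e-10), with 6.86 to 7.57 in RW-MS and 7.95 to 8.53 in DIO-MS. These 2 were the members past the threshold among 10 tested thioesterase genes, where 5.14% of all genes rose. In the fit without the low-Sln arrays 3 rose, where 4.82% of all genes did. Without the low-Sln arrays the rises of Pdk4, Acot1 and Acot2 were 1.49, 1.43 and 1.11, and all 3 genes kept their call in every alternative run. In air the diet raised the same genes by 1.85, 1.20 and 0.89, and in sidestream smoke by 1.21, 1.34 and 1.16. Among 8 tested genes of the pyruvate dehydrogenase complex and its kinases, Pdk1 (0.23 ± 0.06, adjusted p = 0.0164) and the catalytic subunit gene Pdha1 (0.08 ± 0.03, adjusted p = 0.0499) also passed. That made 3 rises in all, where 5.14% of all genes rose, and 2 without the low-Sln arrays, where 4.82% did. The call of Pdk1 was lost without DIO-MS 2 and without the low-Sln arrays (adjusted p = 0.0529), and that of Pdha1 in most alternatives.

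**Figure D2:**
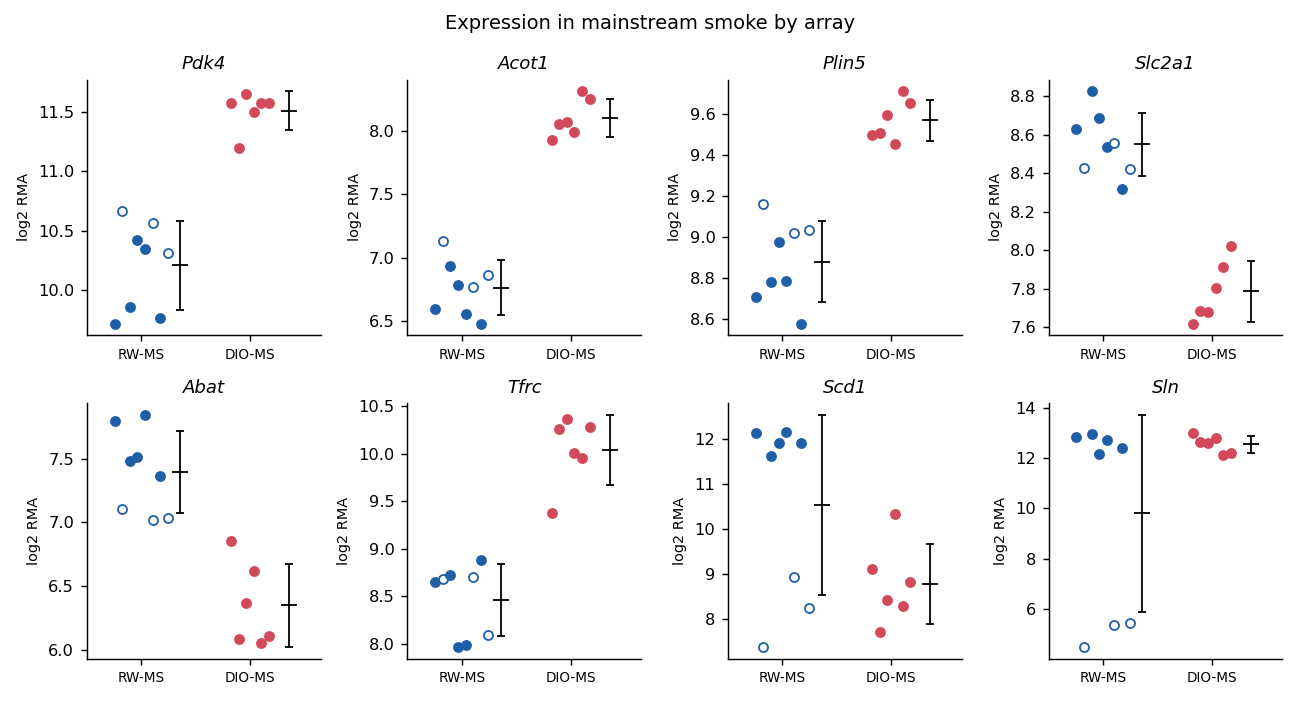
Log2 levels (vertical axes) of 8 genes in each RW-MS array (blue) and DIO-MS array (red), with the group mean and SD as a bar, and open points for the RW-MS arrays with Sln below 8. Pdk4, Acot1, Plin5 and Tfrc lie higher and Slc2a1 and Abat lower in every DIO-MS array than in every RW-MS array, while Scd1 and Sln of RW-MS 2, 6 and 8 stand apart from the other RW-MS arrays.

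Fatty acid oxidation genes rose together: of 30 tested, 20 rose, 4 fell and 6 did not pass, with a median difference of 0.25; over all genes 5.14% rose and 5.44% fell. In air the same list had 20 rises and 4 falls, where 6.92% of all genes rose and 13.3% fell, and a median of 0.22. Of the 24 genes called there, 22 were called in the same direction in mainstream smoke. The counts moved little without the low-Sln arrays, to 21 rises and 4 falls. Decr1, which removes double bonds from unsaturated fatty acids in mitochondria, ran from 11.61 to 11.85 (median 11.79) in RW-MS and from 12.18 to 12.48 (median 12.38) in DIO-MS, a rise of 0.59 ± 0.05 (adjusted p = 3.43e-12). The peroxisome division gene Pex11a rose by 0.60 ± 0.05 (adjusted p = 1.84e-12), with 8.12 to 8.42 in RW-MS and 8.79 to 9.05 in DIO-MS. In both genes the groups were apart, and without the low-Sln arrays Decr1 rose by 0.62 and Pex11a by 0.65. The carnitine shuttle followed: Slc25a20, the carrier of acylcarnitine into the mitochondrion, rose by 0.47 ± 0.04 and Cpt2, which returns the acyl group to coenzyme A, by 0.46 ± 0.05. The outer membrane enzyme Cpt1a rose by 0.28 ± 0.07 (adjusted p = 0.00639). Of the oxidation spiral itself, the very-long-chain and long-chain acyl-coenzyme A dehydrogenases Acadvl and Acadl rose by 0.27 ± 0.04 and 0.21 ± 0.03, the trifunctional protein subunit Hadhb by 0.25 ± 0.03 and the thiolase Acaa2 by 0.34 ± 0.05. The PPAR co-activator gene Ppargc1a, at 9.44 to 10.15 in RW-MS and 10.18 to 10.39 in DIO-MS, rose by 0.36 ± 0.09 (adjusted p = 0.00563). Its difference in air was 0.03 and did not pass, and the difference between smoke and air did not pass either (0.33 ± 0.12, adjusted p = 0.254). The receptor gene Ppara itself differed by -0.17 ± 0.07 (adjusted p = 0.101).

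The 4 members of that list that fell were 2 ketone body enzymes and 2 hydratases. Bdh1, which interconverts the ketone bodies, ran from 10.08 to 11.11 (median 10.76) in RW-MS and from 9.78 to 10.24 (median 9.96) in DIO-MS and fell by 0.72 ± 0.13 (adjusted p = 0.000131). Oxct1, the first step of ketone body use in the heart, fell by 0.23 ± 0.03 (adjusted p = 7.22e-07), with 12.94 to 13.09 in RW-MS and 12.72 to 12.81 in DIO-MS. The 2 groups overlapped in Bdh1 and not in Oxct1. The peroxisomal Ehhadh fell by 0.39 ± 0.11 (adjusted p = 0.0200) and the mitochondrial Echs1 by 0.12 ± 0.04 (adjusted p = 0.0234).

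**Figure D3:**
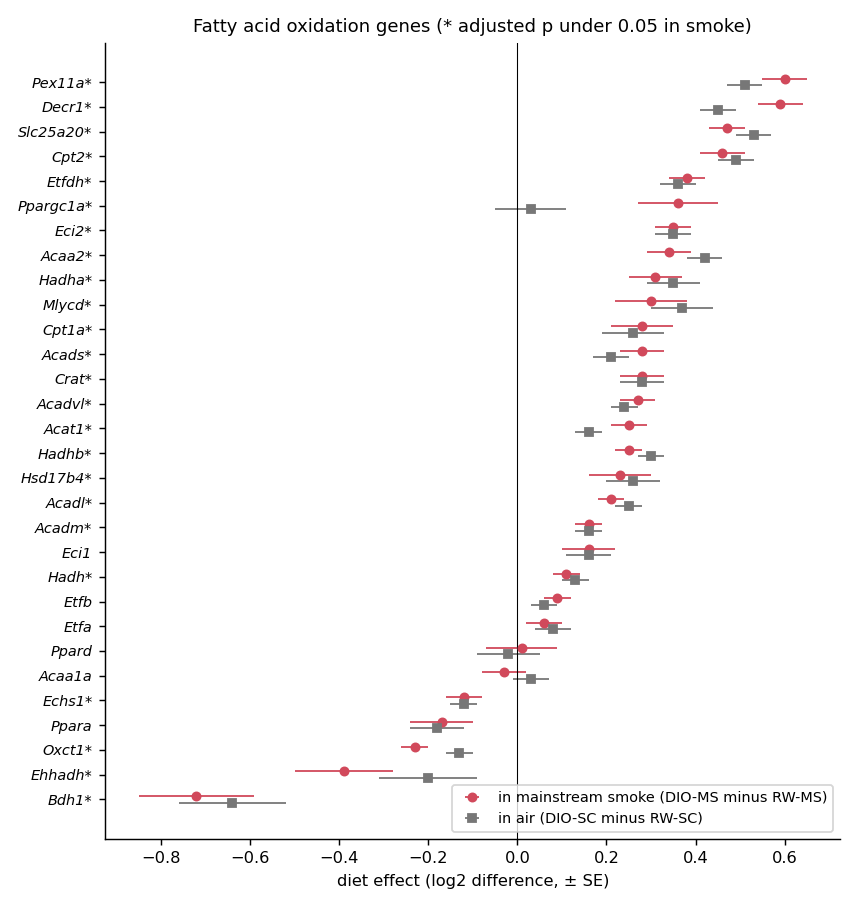
Diet effect (log2 difference ± SE, horizontal axis) for the 30 tested fatty acid oxidation genes in mainstream smoke (red circles, DIO-MS minus RW-MS) and in air (grey squares, DIO-SC minus RW-SC), with an asterisk for an adjusted p under 0.05 in smoke. Most genes have like values under both conditions, from 0.60 for Pex11a to -0.72 for Bdh1 in smoke, and Ppargc1a is at 0.36 in smoke and 0.03 in air.

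Among 17 tested genes of fatty acid uptake, lipid droplets and uncoupling, 6 rose and 2 fell, where 5.14% and 5.44% of all genes did. The counts were 4 and 2 without the low-Sln arrays. In air 9 rose and 2 fell, where 6.92% and 13.3% of all genes did, and 8 of these 11 were called in the same direction in smoke. The fatty acid transporter Cd36 ran from 12.72 to 12.90 (median 12.83) in RW-MS and from 13.08 to 13.16 (median 13.13) in DIO-MS and rose by 0.32 ± 0.03 (adjusted p = 2.68e-09). Fabp3, the heart fatty acid binding protein, rose by 0.20 ± 0.02 (adjusted p = 1.77e-09), with 13.82 to 13.93 in RW-MS and 14.04 to 14.08 in DIO-MS. Neither gene showed overlap between the groups. The droplet coat protein gene Plin5, which shields stored fat from lipases, ran from 8.58 to 9.16 (median 8.88) and from 9.45 to 9.71 (median 9.55) and rose by 0.69 ± 0.07 (adjusted p = 1.77e-09), or 0.80 without the low-Sln arrays. The more widely expressed coat protein gene Plin3 fell by 0.39 ± 0.05 (adjusted p = 9.43e-07), with 10.29 to 10.63 in RW-MS and 10.01 to 10.19 in DIO-MS. Plin2 differed by 0.21 ± 0.10 (adjusted p = 0.162). Ucp3, a mitochondrial carrier induced by fatty acids, rose by 0.64 ± 0.15 (adjusted p = 0.00439) with 6.66 to 7.88 in RW-MS and 7.64 to 8.24 in DIO-MS, and by 0.89 without the low-Sln arrays, which were its 3 highest RW-MS arrays (7.45 to 7.88). Angptl4, a secreted inhibitor of lipoprotein lipase, ran from 5.95 to 7.23 (median 6.82) and from 7.27 to 8.39 (median 7.62), with a rise of 1.10 ± 0.28 (adjusted p = 0.00607), or 0.64 as the mean of all its probe sets. That call was lost without the low-Sln arrays (0.79 ± 0.30, adjusted p = 0.0787), which were its 3 lowest RW-MS arrays (5.95 to 6.40). Mgll, which releases fatty acids from monoglycerides, rose by 0.19 ± 0.05 (adjusted p = 0.0101) and also lost its call without them (adjusted p = 0.0693).

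Of 23 tested genes of glucose transport and glycolysis 5 fell (5.44% of all genes did), 1 rose and 17 did not pass, with a median of -0.05. In the fit without the low-Sln arrays 4 fell and 1 rose, and with all arrays 4 of the 5 genes called in air were called the same way. Slc2a1, the insulin-independent glucose transporter GLUT1, ran from 8.32 to 8.83 (median 8.54) in RW-MS and from 7.62 to 8.02 (median 7.74) in DIO-MS. It fell by 0.76 ± 0.07 (adjusted p = 1.55e-10), a 1.7-fold change with no overlap, by 0.81 without the low-Sln arrays and by 0.75 in air. The insulin-responsive transporter gene Slc2a4 (GLUT4) fell by 0.26 ± 0.05 (adjusted p = 7.43e-05), with 11.10 to 11.47 in RW-MS and 10.98 to 11.16 in DIO-MS. Hexokinase 2 (Hk2, -0.17 ± 0.05, adjusted p = 0.0123), Eno3 (-0.16 ± 0.04, adjusted p = 0.00338) and Ldhb (-0.13 ± 0.03, adjusted p = 0.00208) also fell. Hk2 lost its call without DIO-MS 1 and without the low-Sln arrays (adjusted p = 0.0546), and Ldhb when only the 14 arrays were fitted (adjusted p = 0.0502). Txnip, which binds thioredoxin and lowers glucose uptake, ran from 10.48 to 11.08 (median 10.74) and from 11.51 to 11.93 (median 11.61) and rose by 0.94 ± 0.18 (adjusted p = 0.000266). The groups were apart, and the difference in air was 0.41 (adjusted p = 0.0669). Fbp2, the muscle fructose-bisphosphatase, which runs the opposite way to glycolysis, rose by 0.86 ± 0.10 (adjusted p = 4.50e-08), with 8.26 to 8.92 in RW-MS and 9.14 to 9.69 in DIO-MS. Txnip and Fbp2 rose by 0.97 and 0.98 without the low-Sln arrays. The anaplerotic enzyme pyruvate carboxylase (Pcx) fell by 0.72 ± 0.17 (adjusted p = 0.00328), with 7.39 to 8.28 in RW-MS and 6.91 to 7.21 in DIO-MS. The Pcx difference was -0.96 without the low-Sln arrays, where it was at 7.39 to 7.42 against 7.92 to 8.28 in the other RW-MS arrays, and -0.41 with the atrial, white fat and brown fat marker means as covariates. Gpd2, the mitochondrial glycerol-3-phosphate dehydrogenase, fell by 0.84 ± 0.24 (adjusted p = 0.0194), and its call was lost without DIO-MS 2 (adjusted p = 0.0534). Gpd2 was at 7.77 to 7.97 in the low-Sln arrays and at 8.79 to 9.21 in the other RW-MS arrays, as the fat markers were lower there too, and the part of fat tissue was not tested. The Gpd2 difference was -1.27 without the low-Sln arrays and -0.40 with the 3 marker means as covariates.

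Of 18 tested genes of branched-chain amino acid breakdown, 5 fell (5.44% of all genes did) and 13 did not pass, with a median of -0.10. The same 5 fell in air, where 13.3% of all genes did, and 5 fell without the low-Sln arrays. Bckdhb, a subunit of the branched-chain ketoacid dehydrogenase, ran from 9.51 to 9.85 (median 9.77) and from 9.18 to 9.48 (median 9.25) and fell by 0.44 ± 0.05 (adjusted p = 4.50e-08). Dbt, another subunit of that complex, fell by 0.26 ± 0.05, and Acadsb, which acts further down the isoleucine path, by 0.24 ± 0.04. Abat, placed in this list but best known for breaking down the transmitter GABA, ran from 7.02 to 7.85 (median 7.42) and from 6.05 to 6.85 (median 6.24). It fell by 1.05 ± 0.15 (adjusted p = 2.63e-06), a 2.07-fold change with no overlap, by 1.25 without the low-Sln arrays and by 1.24 in air. As the mean of all its probe sets Abat fell by 0.51 (adjusted p = 3.70e-05).

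Outside these paths, 4 genes with large falls kept their call in every alternative run. Bex1, a small protein of neuronal and regenerating tissue, ran from 5.23 to 6.71 (median 6.00) and from 3.96 to 5.46 (median 4.81) and fell by 1.24 ± 0.26 (adjusted p = 0.000915). Its DIO-MS median lay under 4.90, the mean level below which genes were left out, so no fold is given. Cpxm2, a carboxypeptidase-like secreted protein, fell by 0.96 ± 0.19 (adjusted p = 0.000363). Neat1, the long RNA of nuclear paraspeckles, fell by 0.67 ± 0.11 (adjusted p = 6.28e-05), with 10.04 to 10.64 in RW-MS and 9.50 to 9.81 in DIO-MS. The metallothionein Mt2 fell by 0.83 ± 0.14 (adjusted p = 6.46e-05), with 9.29 to 10.23 in RW-MS and 8.81 to 9.35 in DIO-MS. In air the falls of Bex1, Cpxm2, Neat1 and Mt2 were 1.37, 0.56, 0.77 and 0.49 on the log2 scale, each past the threshold. Leaving out the low-Sln arrays gave differences in smoke of -1.26, -0.95, -0.59 and -0.71 for Bex1, Cpxm2, Neat1 and Mt2. Slc27a2, a fatty acid activating enzyme, fell by 1.20 ± 0.39 (adjusted p = 0.0388), but its call was lost without any one of DIO-MS 1, 2, 3 and 6 or RW-MS 1, 4, 5 and 7. Without the low-Sln arrays, where it was at 4.38 to 4.70 against 5.84 to 6.98 in the other RW-MS arrays, the difference was -1.94 ± 0.36 (adjusted p = 0.00033). Slc27a2 ran from 4.34 to 4.94 in DIO-MS, near or under the same level of 4.90, so no fold is given for it either.

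Heat shock genes, which encode chaperones that refold damaged proteins, were represented by 22 tested members. In air 15 rose, where 6.92% of all genes did, and in mainstream smoke 4 rose, where 5.14% did, all 4 among the 15. The test of the difference between smoke and air was passed by 2 of the 22, Hspa1a and Hspa1b. The median difference was 0.18 in air and 0.10 in smoke. In smoke 2 rose without the low-Sln arrays. Hspa1b, an inducible member of the Hsp70 family, ran from 7.08 to 7.43 in RW-SC and from 8.59 to 10.81 in DIO-SC, a rise of 2.26 ± 0.24 (adjusted p = 2.44e-09). In mainstream smoke it ran from 7.02 to 8.60 (median 7.26) in RW-MS and from 7.59 to 9.30 (median 7.71) in DIO-MS, a difference of 0.55 ± 0.26 (adjusted p = 0.183). The DIO-SC arrays thus lay apart from all of RW-SC, while DIO-MS and RW-MS overlapped. The effect in smoke minus that in air was -1.71 ± 0.36 for Hspa1b (adjusted p = 0.0144) and -1.39 ± 0.32 for Hspa1a (adjusted p = 0.0405). These 2 genes are near-identical copies whose probe sets may read each other's transcripts, so they count as 1 observation. The 4 that rose in smoke were Dnajb4 (0.24 ± 0.04, adjusted p = 8.94e-05), Hspd1 (0.18 ± 0.04, adjusted p = 0.000448), Hspa8 (0.15 ± 0.04, adjusted p = 0.00931) and Dnaja1 (0.30 ± 0.10, adjusted p = 0.0479). Hspd1, the mitochondrial chaperonin, ran from 11.33 to 11.50 in RW-MS and from 11.51 to 11.66 in DIO-MS. Hspa8 lost its call without the low-Sln arrays (adjusted p = 0.0538), and Dnaja1 without the low-Sln arrays (adjusted p = 0.257) and without any of 11 of the 14 single arrays.

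Heat shock factor binds repeats of the unit GAA and its complement in promoters. The stretches below are from the promoters of Hspa1a, Hspa1b, Dnaja1 and Hspd1, as RefSeq gives them in build GRCm38.p6. They run from position -160 to position -41 relative to the start site and in the direction of transcription. Capitals mark every match of the letters GAANNTTC or TTCNNGAA, each of which reads the same on both strands; matches that overlap are joined. Hspa1a (chr17:34972197-34972316, minus strand) and Hspa1b (chr17:34959279-34959398, minus strand) rose in air and did not pass in smoke, while Dnaja1 (chr4:40722308-40722427, plus strand) and Hspd1 (chr1:55087973-55088092, minus strand) passed in both. This is a split by calls and not by size, as Hspa1b had a larger difference in smoke than Dnaja1 or Hspd1. The call of Dnaja1 in smoke was lost in 21 of 30 alternatives. Dnajb4 and Hspa8, also called in smoke, are not shown, and the match of Dnajb4 lies at position -14, outside the stretch. RefSeq lists 1 window for Hspa1a and for Hspa1b, 3 for Dnaja1 and 2 for Hspd1; the stretches of Dnaja1 and Hspd1 are from the 1 window of each that holds a match, and their other windows hold none.
Hspa1a: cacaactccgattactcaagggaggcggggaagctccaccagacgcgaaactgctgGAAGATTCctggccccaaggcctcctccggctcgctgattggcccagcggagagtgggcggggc
Hspa1b: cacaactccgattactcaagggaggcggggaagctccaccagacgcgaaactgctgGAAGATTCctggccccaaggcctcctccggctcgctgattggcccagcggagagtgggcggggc
Dnaja1: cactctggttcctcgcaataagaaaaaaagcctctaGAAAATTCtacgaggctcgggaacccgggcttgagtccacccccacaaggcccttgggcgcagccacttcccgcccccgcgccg
Hspd1: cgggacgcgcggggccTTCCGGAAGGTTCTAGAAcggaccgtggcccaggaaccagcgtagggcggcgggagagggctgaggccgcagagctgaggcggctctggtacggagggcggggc

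The Hspa1a and Hspa1b stretches were identical at all 120 bases, and 296 of the 300 bases of their whole promoter windows matched. Hspd1 holds a longer run of adjoining units than the other 3. Of the 22 heat shock genes on the array 19 had a promoter window of 300 bases, and some had several, 25 windows in all. Of the 25 windows 6 (24.0%) held TTCNNGAA and 12 (48.0%) held GAANNTTC. Over all 32851 promoter windows, 8.52% held the first and 7.86% the second. By gene, 5 of the 19 heat shock genes held TTCNNGAA and 11 held GAANNTTC. The 25 windows are not independent: those of Hsph1 overlap, as do those of Hspd1 and Hspe1, and those of Hspa1a and Hspa1b are near-identical. A match is a description of the letters and not a binding site.

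Immediate early genes, which answer stress and growth signals within minutes, showed 3 rises and no fall among 23 tested, where 5.14% of all genes rose, and 3 rises without the low-Sln arrays. The 3 with all arrays were Ier3 (0.28 ± 0.06, adjusted p = 0.000565), Maff (0.26 ± 0.05, adjusted p = 0.000885) and Klf6 (0.22 ± 0.07, adjusted p = 0.0339), and Klf6 lost its call without any of 6 single arrays. In air 6 rose, where 6.92% of all genes did, and Ier3 was the 1 of them also called in smoke. Jun rose by 0.54 in air (adjusted p = 5.89e-06) and differed by 0.13 ± 0.09 in smoke (adjusted p = 0.390). The test of the difference between smoke and air was passed by 0 of the 23 genes by limma.

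Tfrc, which brings transferrin-bound iron into cells, had the largest rise among the named genes whose call was kept in every alternative run. It ran from 7.96 to 8.88 (median 8.67) in RW-MS and from 9.37 to 10.37 (median 10.13) in DIO-MS. The groups were apart, with a rise of 1.58 ± 0.20 (adjusted p = 2.77e-07), a 2.99-fold change, and of 1.60 without the low-Sln arrays. As the mean of all its probe sets Tfrc rose by 0.77 (adjusted p = 9.81e-07). In air the diet difference was 0.20 ± 0.19 (adjusted p = 0.460), and the effects in smoke and air differed by 1.38 ± 0.27 (adjusted p = 0.00924). The group that stood apart was RW-MS: its mean of 8.46 ± 0.38 (SD, n = 8) compared with 10.22 ± 0.21 (n = 8) in RW-SC, 10.42 ± 0.22 (n = 8) in DIO-SC and 10.04 ± 0.37 (n = 6) in DIO-MS. In sidestream smoke the pattern was alike, with 8.17 in RW-SS, 9.73 in DIO-SS and a diet difference of 1.56 (adjusted p = 4.64e-08). Red cell markers, whose immature cells carry this receptor, had a mean of 5.405 to 5.802 in RW-MS and 5.344 to 5.665 in DIO-MS, and their part in the result was not tested. Of 14 tested iron genes the other called one was Slc25a28, the mitochondrial iron carrier mitoferrin 2, which fell by 0.18 ± 0.05 in smoke (adjusted p = 0.0107) and in air.

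Circadian clock genes showed 3 rises among 15 tested in smoke (5.14% of all genes rose), and as many without the low-Sln arrays. In air 1 rose and 1 fell, where 6.92% and 13.3% of all genes did, and neither of them was called in smoke. Nr1d1, the clock repressor REV-ERB alpha, ran from 6.16 to 6.66 (median 6.34) in RW-MS and from 6.79 to 7.11 (median 6.99) in DIO-MS and rose by 0.61 ± 0.08 (adjusted p = 1.78e-06), the same value as without the low-Sln arrays. In air its groups ran from 6.92 to 7.46 and from 7.13 to 7.39, and the smoke and air effects differed by 0.65 ± 0.11 (adjusted p = 0.0027). RW-MS was again the group at a distance, at a mean of 6.37 against 7.27 in RW-SC, 7.23 in DIO-SC and 6.98 in DIO-MS. Clock, a core activator of the cycle, rose by 0.26 ± 0.05 (adjusted p = 0.000598), and its difference from air was 0.34 (adjusted p = 0.0186) with all arrays and 0.30 (adjusted p = 0.0911) without the low-Sln arrays. Dbp, an output gene of the clock, rose by 0.30 ± 0.08 (adjusted p = 0.0150) and lost its call without DIO-MS 6. Arntl, Per1, Per2 and Cry2 did not pass, with differences of 0.04, -0.05, 0.20 and -0.11.

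Of 7 tested genes of the aryl hydrocarbon receptor pathway, 4 fell with the diet in air, where 13.3% of all genes did. In smoke, where 5.14% of all genes rose and 5.44% fell, 0 passed by limma, with 2 at an unadjusted p under 0.05. The test of the difference was passed by 2, Cyp1a1 and Ahr. Cyp1a1 ran from 5.27 to 5.89 in RW-SC and from 4.15 to 4.82 in DIO-SC, a fall of 1.29 ± 0.12 (adjusted p = 9.96e-11) with no overlap. In mainstream smoke it ran from 5.43 to 6.19 (median 5.88) in RW-MS and from 5.86 to 6.55 (median 6.19) in DIO-MS, a difference of 0.34 ± 0.13 (adjusted p = 0.0762). The effects differed by 1.63 ± 0.17 (adjusted p = 6.50e-08), and by 1.61 without the low-Sln arrays. The lowest group was DIO-SC, at a mean of 4.38, which is under the level of 4.90 used to leave out dim genes, with 5.67 in RW-SC, 5.85 in RW-MS and 6.20 in DIO-MS; in sidestream smoke the diet difference was -0.41 (adjusted p = 0.0100). The receptor gene Ahr fell by 0.32 in air and differed by 0.24 ± 0.09 in smoke (adjusted p = 0.0833). Its effects differed by 0.56 (adjusted p = 0.0256), and by 0.51 (adjusted p = 0.0911) without the low-Sln arrays. Cyp1b1 and Nqo1 did not pass in smoke (0.06 and 0.04).

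Of 21 tested glucocorticoid response genes, 9 rose and 2 fell in air, where 6.92% of all genes rose and 13.3% fell. In smoke 1 rose and 5 fell, where 5.14% and 5.44% of all genes did, or 1 and 4 without the low-Sln arrays. The test of the difference was passed by 2 of the 21, Cebpb and Ddit4. The rise was in Zbtb16, a zinc finger repressor induced by glucocorticoids, which ran from 6.97 to 7.65 (median 7.26) in RW-MS and from 8.02 to 8.52 (median 8.20) in DIO-MS. It rose by 0.97 ± 0.16 (adjusted p = 3.15e-05) in smoke and by 0.56 in air, with -0.03 in sidestream smoke. Glutamine synthetase (Glul) fell by 0.43 ± 0.06 (adjusted p = 5.43e-07), with 11.51 to 11.77 in RW-MS and 11.16 to 11.29 in DIO-MS, and by 0.24 in air. The metallothioneins Mt1 and Mt2, which bind zinc and copper, fell by 0.38 ± 0.07 and 0.83 ± 0.14. The remaining falls, Cebpb and Ddit4, reversed a rise seen in air. Cebpb, a transcription factor of fat and inflammatory genes, ran from 9.68 to 10.12 (median 9.88) in RW-MS and from 9.59 to 9.75 (median 9.68) in DIO-MS, a fall of 0.24 ± 0.07 (adjusted p = 0.0276), after a rise of 0.38 in air. The effects differed by -0.61 ± 0.10 (adjusted p = 0.000831), while the fall in smoke lost its call without any one of DIO-MS 2, 3 and 4 or RW-MS 4 and 6. Ddit4, an inhibitor of the growth regulator mTOR, fell by 0.57 ± 0.19 in smoke (adjusted p = 0.0417) and rose by 0.56 in air, a difference of -1.13 ± 0.25 (adjusted p = 0.0313). Its fall in smoke lost its call without any one of DIO-MS 1, 2, 4 and 5 or RW-MS 4, 5 and 8, and without the low-Sln arrays (adjusted p = 0.0583). Fkbp5, a co-chaperone of the glucocorticoid receptor, rose by 0.53 in air and differed by 0.09 ± 0.15 in smoke (adjusted p = 0.762).

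Among 19 tested antioxidant genes of the NRF2 pathway, 2 rose and 3 fell, or 1 and 4 without the low-Sln arrays, with a median of -0.02; over all genes 5.14% rose and 5.44% fell. Both subunits of the rate-limiting enzyme of glutathione synthesis fell. Gclm ran from 8.79 to 9.20 (median 8.98) in RW-MS and from 8.34 to 8.57 (median 8.43) in DIO-MS and fell by 0.56 ± 0.09 (adjusted p = 1.05e-05), with no overlap. Its difference was -0.58 without the low-Sln arrays and -0.14 in air (adjusted p = 0.212). Gclc fell by 0.22 ± 0.04 (adjusted p = 0.000598). Catalase (Cat), which breaks down hydrogen peroxide, rose by 0.31 ± 0.06 (adjusted p = 0.000439) in smoke and by 0.54 in air. Hmox1 and Nqo1 did not pass (-0.20 and 0.04).

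Genes of the unfolded protein response showed 5 rises and no fall among 25 tested, where 5.14% of all genes rose. These included the 3 that rose in air, where 6.92% of all genes did. The response had 3 rises without the low-Sln arrays, where 4.82% of all genes rose. Atf4, its transcription factor, ran from 9.24 to 9.49 (median 9.39) and from 9.56 to 9.67 (median 9.64) and rose by 0.25 ± 0.04 (adjusted p = 1.38e-05), close to its 0.26 in air. The endoplasmic reticulum chaperone gene Hsp90b1 rose by 0.21 ± 0.04 (adjusted p = 0.000727) and Ddit3 by 0.21 ± 0.06 (adjusted p = 0.00903), the latter losing its call without the low-Sln arrays (adjusted p = 0.0847). Among 22 tested hypoxia genes 5 rose and 2 fell, where 5.14% and 5.44% of all genes did, or 4 and 1 without the low-Sln arrays. The falls were in Slc2a1 and Hk2, and the rises included Tfrc and Pdk1, all of them described above with other lists. Egln3, an oxygen-sensing prolyl hydroxylase, rose by 0.78 ± 0.10 (adjusted p = 9.26e-07), with 8.00 to 8.64 in RW-MS and 8.89 to 9.36 in DIO-MS, and the collagen prolyl hydroxylase P4ha1 by 0.52 ± 0.08 (adjusted p = 8.37e-06), with 7.49 to 7.96 in RW-MS and 8.21 to 8.60 in DIO-MS. The air values of Egln3 and P4ha1 were 0.43 and 0.48. Of 37 tested matrix and basement membrane genes 3 rose, where 5.14% of all genes did, namely the collagen chaperone Serpinh1 (0.51 ± 0.14, adjusted p = 0.0104) and the basement membrane collagens Col4a1 and Col4a2 (both 0.23 ± 0.07). The Col4a1 call was lost without the low-Sln arrays (adjusted p = 0.0732) and without any of 7 single arrays, and the Col4a2 call without DIO-MS 3 or DIO-MS 6. Of 15 tested calcium cycling genes 4 rose with all arrays, where 5.14% of all genes did, and 3 rose without the low-Sln arrays. The 4 were calsequestrin 2 (Casq2, the calcium store of the sarcoplasmic reticulum, 0.18 ± 0.04, adjusted p = 0.00116), its partner triadin (Trdn, 0.21 ± 0.05, adjusted p = 0.00439), the sodium-calcium exchanger gene Slc8a1 (0.24, adjusted p = 0.0487) and Sln. Slc8a1 lost its call in 21 of 28 alternatives, among them the fit without the low-Sln arrays. Sln differed by -0.07 in that fit, a value fixed by the choice of arrays on Sln itself. The 3 genes called in that fit are thus not all among these 4.

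Of 37 tested proteasome genes 6 fell and 0 rose by limma (1 was higher at an unadjusted p under 0.05), and of 74 mitochondrial ribosomal protein genes 10 fell and 1 rose, where 5.44% of all genes fell. Mrps30 had the smallest adjusted p of the latter (-0.23 ± 0.04, adjusted p = 5.33e-05), and without the low-Sln arrays 4 mitochondrial ribosomal and 6 proteasome genes fell. Of 79 respiratory chain and ATP synthase genes 2 rose and 1 fell in smoke, where 5.14% and 5.44% of all genes did. In air 10 rose and 3 fell, where 6.92% and 13.3% of all genes did. The test of the difference between smoke and air was passed by 0 of the 79 by limma.

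Lipid synthesis genes differed in their calls with and without the low-Sln arrays. Among the genes past the threshold in air, the 3 largest falls with the diet were in Scd1, Fasn and Elovl6, enzymes that make and desaturate fatty acids and are abundant in fat tissue. Scd1 ran from 11.63 to 12.15 in the 5 RW-MS arrays with high Sln, from 7.38 to 8.95 in the 3 low-Sln arrays and from 7.72 to 10.33 (median 8.62) in DIO-MS. With all arrays it differed by -1.75 ± 0.75 (adjusted p = 0.129), and without the low-Sln arrays it fell by 3.16 ± 0.70 (adjusted p = 0.00237), against 2.88 in air. Fasn differed by -1.64 (adjusted p = 0.0859) and without them fell by 2.84 (adjusted p = 0.00122), and the values of Elovl6 were -1.29 (adjusted p = 0.131) and -2.34 (adjusted p = 0.00244). The liver-type glycogen phosphorylase Pygl (-1.14 to -1.90) and the pentose phosphate enzyme Tkt (-1.15 to -1.85) behaved alike and passed only without those arrays in this pair of fits. Of 16 tested genes of fatty acid and triglyceride synthesis, 2 rose and 2 fell with all arrays, where 5.14% and 5.44% of all genes did. Without the low-Sln arrays 1 rose and 6 fell, where 4.82% and 6.12% of all genes did. In air 1 rose and 9 fell, where 6.92% and 13.3% of all genes did. Fat markers moved with these genes. Adipoq, the adipocyte hormone adiponectin, ran from 9.80 to 11.02 in the high-Sln arrays, from 4.07 to 6.68 in the low-Sln arrays and from 5.88 to 9.61 in DIO-MS, and its difference of -0.71 (adjusted p = 0.721) became -2.52 (adjusted p = 0.0823) without them. Of 8 tested white fat markers 0 passed by limma with all arrays (2 at an unadjusted p under 0.05) and 1 fell without the low-Sln arrays. Of 3 brown fat markers 0 (1 unadjusted) and 3 fell, and of 10 smooth muscle markers 0 (3 unadjusted) and 4. Over all genes 5.44% fell with all arrays and 6.12% without the low-Sln arrays. On all arrays Scd1, Fasn and Elovl6 were called lower with the white fat marker mean as covariate, and also with the atrial marker mean. With the atrial, white fat and brown fat marker means together Scd1 and Fasn were called lower and Elovl6 was not called. The part of fat tissue in the fall of these genes was not tested. Gpam, which starts triglyceride synthesis and is abundant in the heart itself, rose by 0.44 ± 0.07 (adjusted p = 5.99e-05), with 11.25 to 11.74 in RW-MS and 11.82 to 12.10 in DIO-MS, and by 0.51 without the low-Sln arrays. Mlxipl, the carbohydrate-sensing factor ChREBP, fell by 0.43 ± 0.08 (adjusted p = 0.000217) and the triglyceride enzyme gene Dgat2 by 0.25 ± 0.05 (adjusted p = 0.000631). With the atrial, white fat and brown fat marker means as covariates, the Mlxipl difference was -0.20 (adjusted p = 0.218) and that of Dgat2 -0.09 (adjusted p = 0.363). Of 16 cholesterol synthesis genes 1 fell in smoke (Idi1, -0.46 ± 0.12, adjusted p = 0.0110), where 5.44% of all genes did. In smoke 3 fell without the low-Sln arrays. In air 8 fell, where 13.3% of all genes did, and 0 of the 16 passed the test of the difference by limma.

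Atrial genes had the 3 largest differences among the called genes with all arrays. Sln differed by 2.76 ± 0.88 (adjusted p = 0.0363), the atrial myosin light chains Myl7 and Myl4 by 2.47 ± 0.80 (adjusted p = 0.0382) and 2.38 ± 0.77 (adjusted p = 0.0396). Without RW-MS 2, 6 and 8 Myl7 and Myl4 differed by -0.07 and -0.08, with adjusted p of 0.878 and 0.856. The Sln difference was then -0.07, a value fixed by the choice of arrays on Sln itself. Of 9 tested atrial markers 3 rose with all arrays, where 5.14% of all genes did. Without the low-Sln arrays 0 passed by limma, with 0 at an unadjusted p under 0.05. The markers include Sln, and Myl7 and Myl4 were low in the same arrays (5.46 to 7.26 and 5.75 to 7.04). The count without these arrays thus follows in part from the choice of arrays. Nppa, the atrial natriuretic peptide, moved from 1.03 ± 0.39 (adjusted p = 0.0827) to -0.20 ± 0.13 (adjusted p = 0.349). Of 10 tested ventricular stretch and hypertrophy genes 2 rose with all arrays, Ccn2 and Fhl1, where 5.14% of all genes did. Without the low-Sln arrays 0 passed by limma, with 1 at an unadjusted p under 0.05. In the same list Nppb and Myh7 differed by 0.22 ± 0.17 and 0.05 ± 0.20 with all arrays and did not pass.

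In air, 1882 genes (20.2%) differed between DIO-SC and RW-SC, 643 higher (6.92%) and 1239 lower (13.3%). Of the 643, 189 (29.4%) were also called higher in mainstream smoke, where 5.14% of all genes were; 385 had the same sign without a call, 65 the opposite sign and 4 were called lower. Of the 1239, 322 (26.0%) were also called lower, where 5.44% of all genes were, 773 had the same sign, 141 the opposite sign and 3 were called higher. The median effect of the genes called in air went from 0.22 in air to 0.12 in smoke for the higher and from -0.18 to -0.10 for the lower. The genes were chosen by their values in air, so the change in the median has no test. Without the low-Sln arrays 189 and 315 persisted. Of the 16 genes at least 1.5-fold higher in air (0.172%) 11 were called in smoke, and 9 without the low-Sln arrays. Of the 24 at least 1.5-fold lower (0.258%), 9 were called, and 17 without those arrays, a setting in which the RW-MS fat marker means were higher. Seen from smoke, 189 of the 478 higher genes (39.5%) and 322 of the 506 lower genes (63.6%) were also called in air. Of the 289 higher genes not called in air, 166 were called higher in sidestream smoke, where 19.7% of all genes were, and of the 184 lower genes 48 were called lower there, where 12.9% were (32.6% of genes were called in either direction). Over the 9295 genes the effects in smoke and air had a Pearson correlation of 0.59 (Spearman 0.54), and of 0.67 (0.57) without the low-Sln arrays. These compare genes, which are not independent replicates, in contrasts that share no array.

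**Figure D4:**
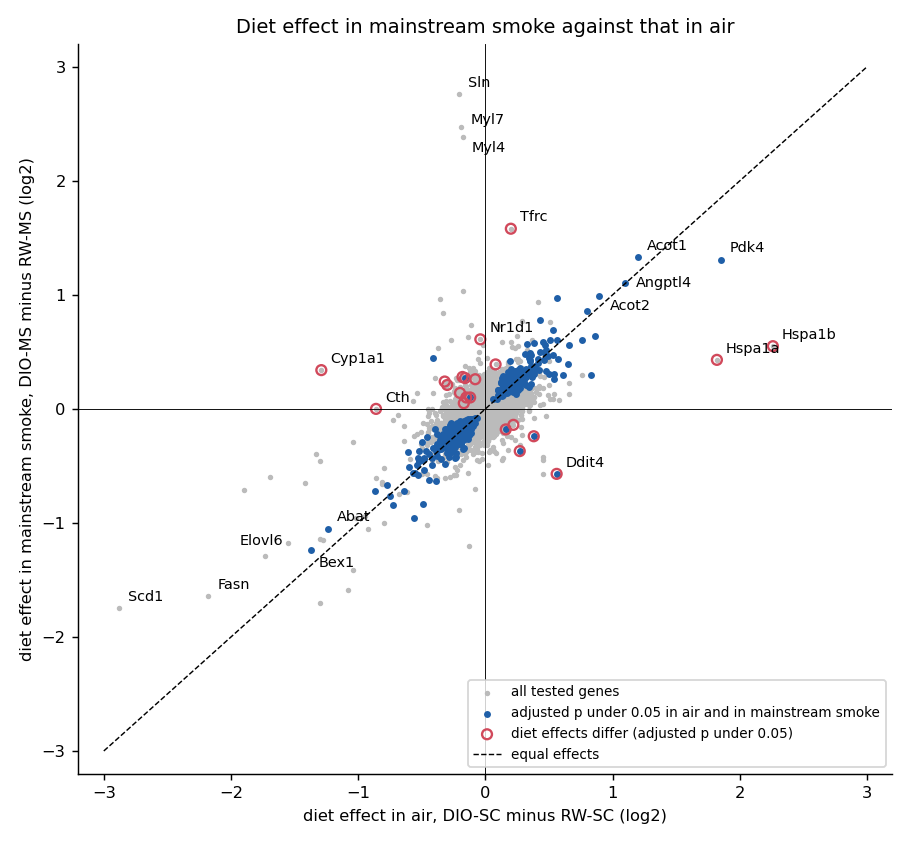
Diet effect in mainstream smoke (vertical axis, log2) against that in air (horizontal axis, log2) for 9295 genes, with genes called under both conditions in blue, genes past the test of the difference ringed in red and the dashed line marking equal effects. Acot1, Acot2, Abat and Bex1 lie near the line, Hspa1b (2.26 in air, 0.55 in smoke) and Cyp1a1 (-1.29 and 0.34) far from it, and Sln, Myl7 and Myl4 lie above 2.3 in smoke.

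The test of the difference itself, the diet effect in smoke minus that in air, was passed by 21 genes (0.226%), 14 positive (0.151%) and 7 negative (0.0753%), and 1057 genes had an unadjusted p under 0.05. Without the low-Sln arrays 23 genes passed, of which 17 were among the 21; Ahr, Asxl1, Clock and Phf20 were not. The count was 35 without DIO-MS 1, 33 without RW-MS 1 and 32 without DIO-SC 8, and 7 when RW-MS 7 was left out together with the low-Sln arrays. Besides the genes described above, Cth, an enzyme of cysteine and hydrogen sulfide synthesis, fell by 0.86 ± 0.10 in air (adjusted p = 5.81e-08). In smoke it had a mean of 5.31 ± 0.20 (SD, n = 8) in RW-MS and 5.31 ± 0.32 (n = 6) in DIO-MS, and its effects differed by 0.86 ± 0.15 (adjusted p = 0.0027). Its DIO-SC mean of 4.53 was also under 4.90. Ibtk, an adaptor of ubiquitin ligases, rose in smoke by 0.39 ± 0.05 (adjusted p = 6.76e-07), with 6.81 to 7.06 in RW-MS and 7.21 to 7.48 in DIO-MS. Its effect in air was 0.08 and the difference 0.32 (adjusted p = 0.0276). Gadd45g, a growth arrest gene, rose by 0.27 in air and fell by 0.37 ± 0.09 in smoke (adjusted p = 0.00695), a difference of -0.64 ± 0.13 (adjusted p = 0.0106). In air and smoke 7 genes were called in opposite directions, namely Cebpb, Ddit4, Gadd45g, Hectd3, Arfgef1, Slc41a3 and the potassium channel subunit gene Kcne1, and all but Kcne1 (0.85, adjusted p = 0.0563) passed the test of the difference. Kcne1 ran from 4.41 to 5.17 in RW-MS and from 4.65 to 5.47 in DIO-MS, near the mean level of 4.90 below which genes were left out, and lost its call without any of 10 single arrays.

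**Figure D5:**
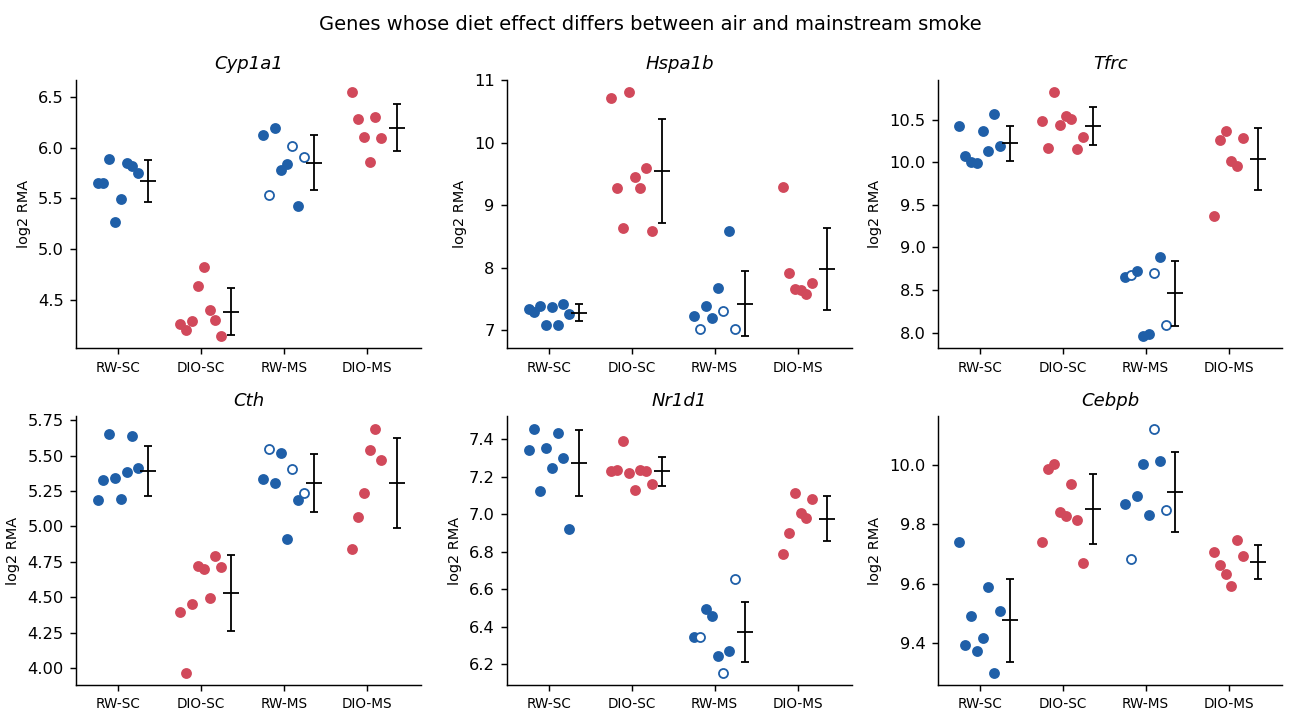
Log2 levels (vertical axes) of 6 genes past the test of the difference in each array of RW-SC, DIO-SC, RW-MS and DIO-MS (blue regular diet, red high-fat diet), with the group mean and SD as a bar and open points for low-Sln arrays. For Cyp1a1 and Cth the DIO-SC group is low (means of 4.38 and 4.53), for Hspa1b it is high (9.54), for Tfrc and Nr1d1 the RW-MS group is low (8.46 and 6.37), and for Cebpb the order of the diets is reversed between air and smoke.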

How the data were processed

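Heart RNA (3 µg per mouse, 1 array each) was measured on Affymetrix mouse genome arrays. The authors deposited log2 expression values made by RMA, per the submitters' processing notes, so background correction, quantile normalization and probe summary had been done, and no version is given in the sources used here. Array medians lay between 6.20 and 6.24. Of 22690 probe sets 64 are controls, 20393 name 1 gene, 691 several and 1606 none in the platform annotation, and 20364 matched RefSeq by Entrez number. Each of 12393 genes was represented by its probe set of highest mean, and the lowest 25% (mean below 4.90) were left out, leaving 9295. limma 3.58.1 in R 4.3.3 fitted the means of the 6 groups over all 45 arrays, so the comparisons share an estimate of the spread (42.6 residual degrees of freedom with the prior), with Benjamini-Hochberg adjustment over all tested genes. A gene was called at an adjusted p under 0.05. The difference test is the diet effect in mainstream smoke minus that in air. The procedure was tested on simulated data. The members and gene lists were chosen with earlier results of these data known. Genes were named by rule: the 10 largest called rises and falls in smoke and in air, up to 4 genes per list by smallest adjusted p, the 5 largest differences each way, a fixed panel and all members of small lists. Others, such as Ehhadh, Ppargc1a, Oxct1, Acadl, Ibtk, Hectd3 and Arfgef1, were named after their values were seen. No label says that replicate numbers pair the samples. Deviations of same-numbered arrays correlated at -0.22 to 0.26 by title and -0.18 to 0.37 by description. These correlations are too few to show whether the numbers pair mice. No batch or scan date is given in the sources used here. Precision is limited by how many arrays each group has. Alternatives covered the filter, probe set choice, normalization, moderation, array weights, marker covariates, replicate blocks and each array left out. Promoter windows are from RefSeq, GRCm38.p6. The files name no genome build, so no gene coordinates are given otherwise.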

Additional observations from a re-analysis of the deposited data

Results flagged for a closer look

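In 26 of 282 sets of arrays of 1 gene and group, 1 array lay far from the rest of its group, where chance alone gives about 1 in 20. RW-MS 7 accounted for many: Hspa1b 8.60, Pdha1 12.50, Slc2a4 11.10, Klf6 8.16, Idi1 7.47, Slc25a28 7.91, Ctsl 11.78, Bckdhb 9.51, Rpl6 11.98, Nqo1 7.84 and Fkbp5 8.30. DIO-MS 1 was apart in Hspa1b at 9.30, Hspa1a at 7.85, Ctsl at 11.17, Hsph1 at 9.26 and Cyp1b1 at 7.80. DIO-MS 2 was apart in Pdk4 at 11.20 and Gadd45g at 6.10, DIO-MS 5 in Pdha1 at 12.77, and DIO-MS 6 in Slc25a26 at 8.99, Plin2 at 9.53 and Fos at 6.65. The remaining ones were Fabp3 in RW-MS 2 at 13.93, Trib3 and Hsph1 in RW-MS 8 at 6.48 and 8.32, and Slc25a35 in RW-MS 1 at 6.62.

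The diet effect in smoke exceeded that in air, by limma's test of the difference, in Cyp1a1 by 1.63, Tfrc by 1.38, Cth by 0.86, Nr1d1 by 0.65, Ahr by 0.56, Dact1 by 0.51, Prkd1 by 0.46, Slc41a3 by 0.44, Asxl1 by 0.34, Clock by 0.34, Ibtk by 0.32, Phf20 by 0.25, Arfgef1 by 0.22 and Gid8 by 0.22. It was below that in air in Hspa1b (-1.71), Hspa1a (-1.39), Ddit4 (-1.13), Gadd45g (-0.64), Cebpb (-0.61), Pcf11 (-0.36) and Hectd3 (-0.34).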

How the results depend on the processing

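The 984 genes called in mainstream smoke became 1564 with array weights, 538 with the atrial, white fat and brown fat means as covariates (chosen after seeing the data) and 456 when only the groups compared were fitted. In the same settings the 511 diet effects called alike in air and smoke became 956, 309 and 308. The 21 genes past the difference test became 48 with array weights, 80 with the 3 marker covariates, and 7 without the low-Sln arrays and RW-MS 7 (also chosen after seeing the data). Leaving out 1 array at a time gave 712 (without DIO-MS 2) to 1072 (without RW-MS 7) genes in smoke, 1571 to 1869 in air, 14 (without DIO-MS 5) to 35 (without DIO-MS 1) past the difference test, and 407 to 619 persisting. The other settings kept the smoke count between 803 and 1359. With the replicate number as a block, 803 genes passed by title number and 828 by description number, and 18 and 20 passed the difference test. No label says that these numbers pair the animals. The atrial genes reversed, which for Sln the choice of arrays itself fixes, and Myl7 and Myl4 were low in the low-Sln arrays too. Sln went to -0.07 without the low-Sln arrays and -0.12 without these and RW-MS 7. In the same settings Myl7 went to -0.07 and -0.10, and Myl4 to -0.08 and -0.13. Of 109 named genes called in smoke, 49 kept their call in all alternatives run and 60 lost it in some; of 32 not called, 11 passed in some. The cause of these changes was not tested.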
